A study of Bos taurus with 30 samples.

Results

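The genes of cholesterol efflux and of its control by liver X receptors were followed in bovine endometrial cells, 9 genes in all. They were chosen by name and found by their symbols among the 27607 genes of the count tables, and each was present. They are ABCA1 (ENSBTAG00000020661), ABCG1 (ENSBTAG00000021272), NR1H2 (ENSBTAG00000003264), NR1H3 (ENSBTAG00000010681), MYLIP (ENSBTAG00000004115), NPC1 (ENSBTAG00000015195), NPC2 (ENSBTAG00000021955), APOE (ENSBTAG00000010123) and SCARB1 (ENSBTAG00000014269).

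The cells were primary cells from uteri of nonpregnant cows (Bos taurus) in the early luteal phase. An epithelial-enriched population lay in the upper chamber of a microfluidic device, and a stromal-enriched one lay below it on the other side of a porous membrane. Medium flowed through the device for 3 days. RNA of each population was sequenced in 30 libraries, with 3 replicates in each of 10 groups.

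In the glucose experiment, epithelial and stromal cells received 5 mM or 50 mM of glucose. In the insulin experiment, both populations received 5 mM of glucose with a vehicle of acetic acid in phosphate-buffered saline, 1 ng/mL of insulin or 10 ng/mL of insulin. Both chambers were populated in every group, so no library came from epithelial or stromal cells cultured alone. The study calls the samples biological replicates, but the labels do not tie a replicate number to an animal. The p-values therefore measure the spread between these samples.

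Cells cannot break down the sterol ring, so surplus cholesterol must be stored or exported. It leaves lysosomes through NPC2 and NPC1 and crosses the plasma membrane through ABCA1 and ABCG1 to acceptors such as apolipoprotein A1 and high-density lipoprotein (HDL). The liver X receptors (LXR), which oxysterols activate as heterodimers with retinoid X receptors, turn on ABCA1, ABCG1, MYLIP and APOE. In the endometrium, lipid handling by the epithelium is of interest because the uterine fluid feeds the early embryo.

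A level is given in CPM, the reads of a gene scaled to the total of its library. Gene lengths were not used, so levels were compared for the same gene between libraries. Where reads of different genes are set against each other, the ratio is one of reads only. The libraries held about 13493500 to 16647700 counted reads in the glucose experiment and about 8826470 to 13214700 in the insulin experiment. Where no read was found, the limit is 3 counts, or 0.18 to 0.34 CPM depending on the library, for counting error only. Tests were made with edgeR's quasi-likelihood method, and P was adjusted after Benjamini and Hochberg over all genes tested. To be called, a gene needed an adjusted P below 0.05 together with a log2 fold change of more than 0.1 up or down.

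Each population carried its own markers and, at lower levels, those of the other. The 20 epithelial and 20 stromal marker genes were all in the tables. In a stromal library, the median epithelial marker reached 0% to 62.1% of its level in epithelial cells, and in an epithelial library the median stromal marker reached 1.68% to 14.2% of its stromal level. One stromal library stood apart, replicate 3 at 50 mM of glucose, with the 62.1%. Of 12 immune marker genes 6 were in the tables, and they summed to at most 19.9 CPM in any library. The 7 endothelial markers found summed to at most 107.1 CPM, and the 8 smooth muscle and pericyte markers to 108 to 851 CPM in epithelial libraries, against 1603 to 8733 CPM in stromal ones. In bulk RNA, fewer cells of a type and less RNA per cell cannot be told apart.

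**Figure D1:**
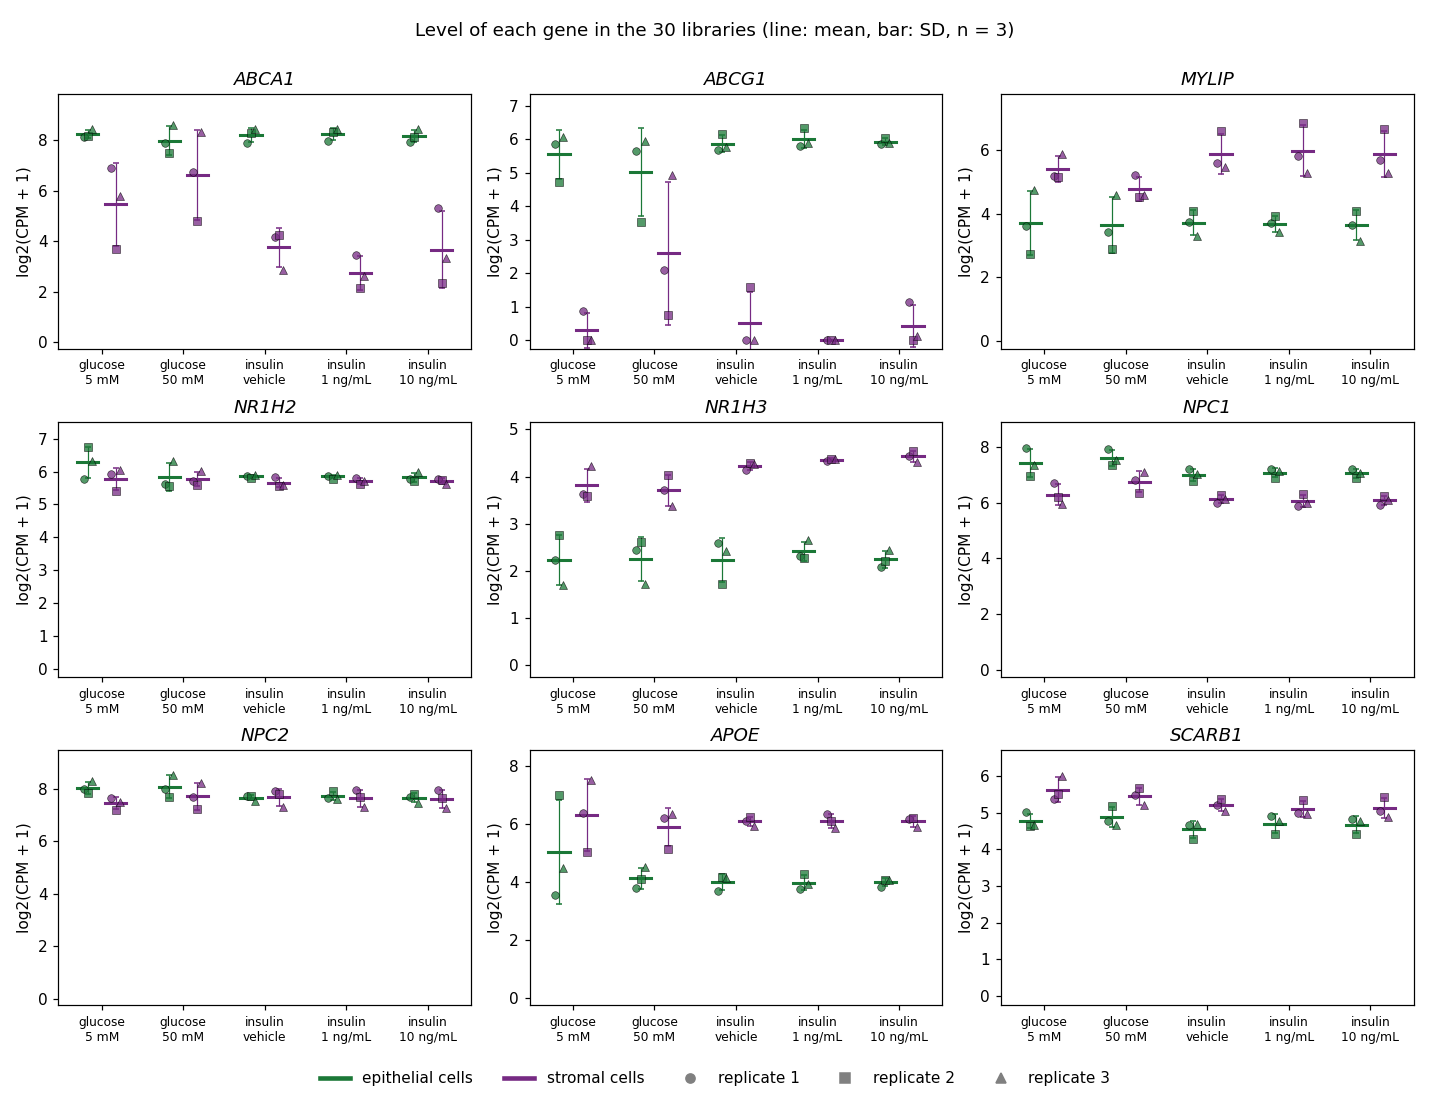
Level of each of the 9 genes in every library, as log2(CPM + 1) on the vertical axis, for the 5 conditions on the horizontal axis. Symbols are single libraries by replicate number, lines are means and bars are SDs (n = 3). Epithelial cells (green) lie above stromal cells (purple) for ABCA1, ABCG1 and NPC1 and below them for MYLIP, NR1H3, APOE and SCARB1 in most libraries, while NR1H2 and NPC2 overlap.

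Calls between the cell types were more frequent in the insulin than in the glucose experiment, for the 9 genes as for all genes. The counts are given beside the share of all genes and are not read as a trait of the 9. With vehicle, 7 of the 9 genes were called between epithelial and stromal cells, 3 higher in epithelial (ABCA1, ABCG1, NPC1) and 4 higher in stromal cells (MYLIP, NR1H3, APOE, SCARB1). Of all protein-coding genes tested there, 55.9% were called, 28.2% higher and 27.8% lower in epithelial cells. At 1 ng/mL of insulin 6 of the 9 genes were called, 3 in each direction, against 59.4% of all genes (29.9% higher, 29.5% lower). At 10 ng/mL it was again 6, 3 in each direction, against 54.9% (27.3% higher, 27.6% lower). In the glucose experiment 3 of the 9 were called at 5 mM, 1 higher and 2 lower, against 21.5% of all genes (10.8% higher, 10.7% lower). At 50 mM it was 4, 1 higher and 3 lower, against 17.6% (6.57% higher, 11.0% lower). The median log2 fold change of the 9 genes, epithelial over stromal, was -0.09, -0.03, -0.07, 0.28 and -0.08 in these 5 conditions, and that of all genes tested lay between -0.01 and 0.03. ABCG1 passed the filter on low counts through its epithelial libraries in the insulin experiment and at 5 mM, so its call was fixed there. Without it, 6, 5, 5 and 2 of the other 8 genes were called in the first 4 of these conditions. No gene was called in opposite directions in different conditions. How many of all genes had cell types without overlap was not counted, so statements on overlap below only describe levels.

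ABCA1 and ABCG1 load cholesterol and phospholipid onto acceptors outside the cell, ABCA1 onto lipid-poor apolipoproteins and ABCG1 onto HDL. ABCA1 was expressed at 237.1 to 346 CPM (median 312.5) in the 9 epithelial libraries of the insulin experiment. Its 9 stromal libraries held 3.48 to 39.1 CPM (median 9.13), so the populations did not overlap. The log2 fold change of ABCA1 was 4.44 (standard error 0.413, adjusted P = 0.00185) with vehicle, 5.57 (standard error 0.397, adjusted P = 0.00025) at 1 ng/mL and 4.51 (standard error 0.755, adjusted P = 0.00805) at 10 ng/mL, higher in epithelial cells in 3 of 3 pairs each.

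In the glucose experiment the separation of ABCA1 was smaller. Epithelial libraries held 275.7, 287.5 and 344 CPM of ABCA1 at 5 mM, and 233, 177 and 391 CPM at 50 mM. Stromal libraries held 119, 11.9 and 54.6 CPM of ABCA1 at 5 mM, and 106, 26.8 and 322 CPM at 50 mM. The cell types stayed apart at 5 mM but overlapped at 50 mM, where stromal replicate 3 was above 2 of the 3 epithelial libraries. With edgeR ABCA1 was not called at either concentration, with a log2 fold change of 2.57 (95% interval 0.76 to 4.38, adjusted P = 0.0587) at 5 mM and 1.200 (-0.03 to 2.43, adjusted P = 0.144) at 50 mM. Leaving out replicate 1 (3.42) or replicate 3 (2.71), or the filter on low counts, brought a call at 5 mM. At 50 mM it was 1.73 without replicate 3 and 0.53 without replicate 2, neither called. DESeq2 called ABCA1 at both concentrations (adjusted P = 0.000339 and 0.0315).

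By group mean, ABCA1 was highest in epithelial cells, where the 5 groups lay between 267 ± 111 and 304 ± 50.8 CPM (SD, n = 3) and overlapped. Stromal cells followed in the order 50 mM glucose (152 ± 153), 5 mM glucose (61.8 ± 53.8), 10 ng/mL insulin (17.4 ± 19.0), vehicle (13.7 ± 6.46) and 1 ng/mL insulin (6.21 ± 3.39 CPM). Each stromal group overlapped its neighbour in this order. The glucose and insulin experiments were fitted separately and were not compared by a test.

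ABCG1 was close to absent from stromal cells. All 15 epithelial libraries expressed it, at 50.3 to 79.6 CPM (median 58.5) in the insulin experiment and at 10.51 to 66.4 CPM (median 52.8) in the glucose experiment. In stromal cells it had 0 reads in 8 of 15 libraries, 6 of the 9 insulin and 2 of the 6 glucose libraries. The other stromal insulin libraries had 22 reads (vehicle, replicate 2), 16 reads (10 ng/mL, replicate 1) and 1 read (10 ng/mL, replicate 3). The stromal glucose libraries had 13, 0 and 0 reads at 5 mM and 53, 10 and 426 reads at 50 mM.

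ABCG1 was called in all 5 cell-type comparisons, higher in epithelial cells in 3 of 3 pairs each time. The log2 fold change was 6.49 (standard error 0.791) with vehicle, 6.94 (standard error 0.692) at 10 ng/mL, 7.75 (standard error 1.12) at 5 mM and 2.63 (standard error 0.629) at 50 mM, with adjusted P = 0.00331, 0.00239, 0.0083 and 0.0466. At 1 ng/mL of insulin all 3 stromal libraries were at 0, and epithelial cells were at least 749.8-fold higher against 3 counts over the pooled group. With vehicle, at 10 ng/mL and at 5 mM, ABCG1 entered the test through its epithelial libraries alone, so these values describe the gap and do not test it. At 50 mM the groups overlapped, and the call was lost without the replicate block (1.79) and without replicate 1 (2.12). Without replicate 3 it was 3.68.

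**Figure D2:**
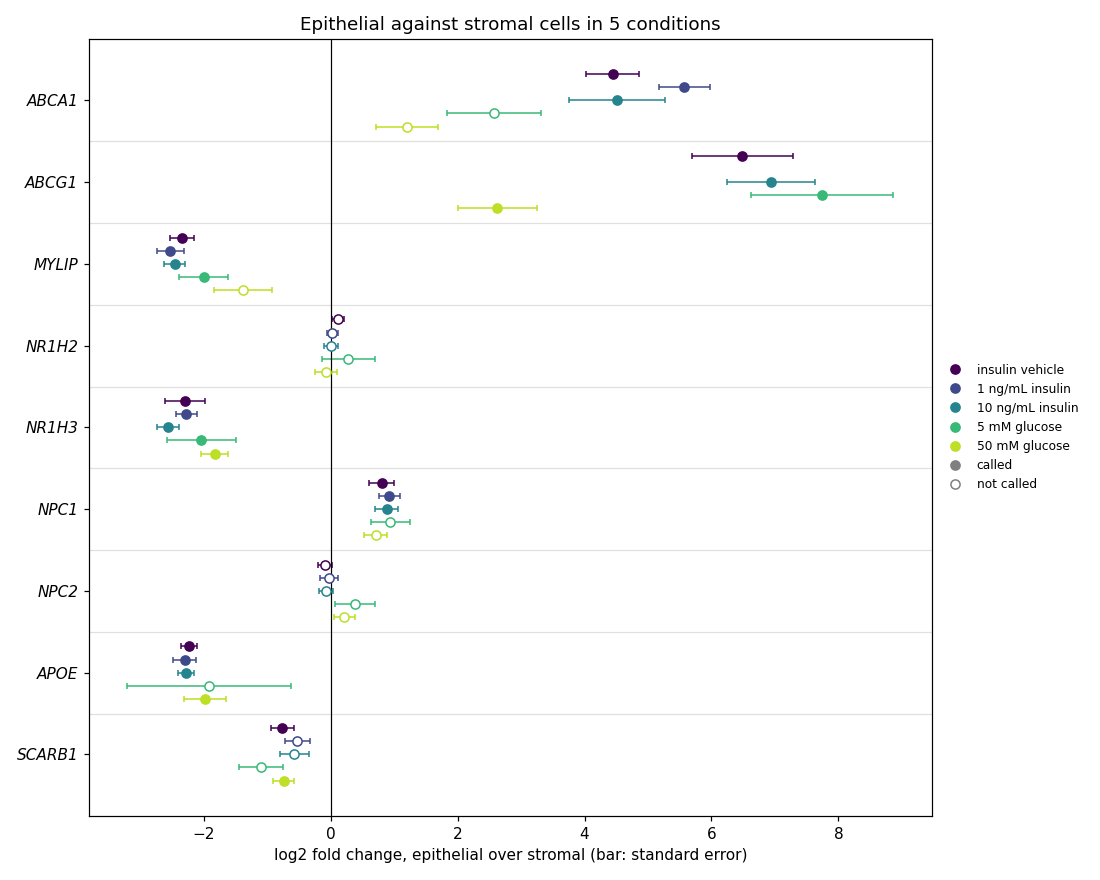
Log2 fold change of each gene, epithelial over stromal, on the horizontal axis for the 5 conditions. Points are estimates, bars are standard errors (n = 3 per group) and filled points were called. ABCA1, ABCG1 and NPC1 lie right of 0 and MYLIP, NR1H3, APOE and SCARB1 left of 0 in all conditions drawn, while NR1H2 and NPC2 lie near 0. ABCG1 at 1 ng/mL, with every stromal library at 0, is not drawn.

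The stromal reads of ABCG1 moved with the epithelial markers of the same library. The 6 stromal libraries with at least 10 ABCG1 reads were those in which the median epithelial marker exceeded 3% of its epithelial level. The 8 libraries with no ABCG1 read had marker medians of 0% to 0.0803%. ABCA1 was different in that it was detected in every stromal library, with at least 41 reads. It followed the markers only in part. ABCA1 was highest, at 322 CPM, in the 50 mM library of replicate 3, where the markers were at 62.1%. It was at 54.6 CPM with markers at 0.0692% (5 mM, replicate 3) and at 26.8 CPM with 5.09% (50 mM, replicate 2). In those 8 libraries without ABCG1 reads it reached 1.17% to 19.2% of its mean epithelial level. Per read of ABCG1 there were 4.01 to 16.9 reads of ABCA1 in epithelial libraries (median 4.85, n = 15) and 8.95 to 140 in the 7 stromal libraries with any ABCG1 read (median 32.3). These are ratios of reads and not of molecules, and the stromal ones leave out the 8 libraries with the lowest marker medians. How far epithelial RNA contributed to the stromal values was not tested.

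**Figure D3:**
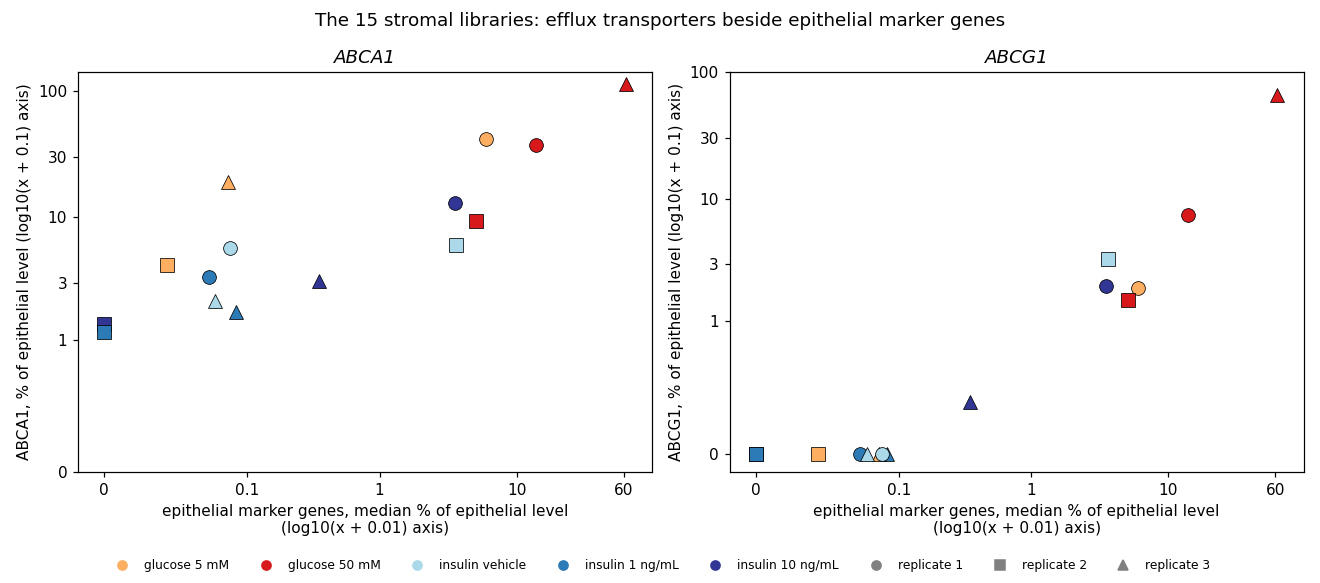
ABCA1 (left) and ABCG1 (right) in the 15 stromal libraries, in % of the mean epithelial level of the same experiment on the vertical axis, against the median level of 20 epithelial marker genes in % of their epithelial level. Both axes are logarithmic with a small offset, colours are conditions and shapes are replicates. ABCG1 is at 0 or nearly so in libraries with markers under 1%, whereas ABCA1 is above 1% in all 15.

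The receptors themselves differed in pattern. NR1H2 encodes LXR beta, the form found in most tissues. It was expressed at 51.9 to 61.9 CPM (median 56.8) in epithelial and 46.3 to 56.1 CPM (median 51.2) in stromal insulin libraries, and the ranges overlapped. It was called in none of the 5 cell-type comparisons, and the log2 fold change had a 95% interval of -0.11 to 0.35 with vehicle, -0.20 to 0.26 at 1 ng/mL and -0.28 to 0.29 at 10 ng/mL. The intervals were wider at 5 mM (-0.74 to 1.30) and at 50 mM (-0.52 to 0.36).

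NR1H3 encodes LXR alpha, which is known from liver, fat and macrophages. It was higher in stromal cells in 3 of 3 pairs of every condition and was called in all 5. In the insulin experiment the epithelial libraries held 2.27 to 5.27 CPM (median 3.98) and the stromal libraries 16.6 to 22.3 CPM (median 19.0). In the glucose experiment it was at 2.26 to 5.78 CPM in epithelial cells, against 9.39 to 17.7 CPM in stromal cells, again without overlap. For NR1H3 the difference on the log2 scale was -2.30 (standard error 0.312, adjusted P = 0.00431) with vehicle, -2.28 (standard error 0.164) at 1 ng/mL, -2.56 (standard error 0.176) at 10 ng/mL, -2.04 (standard error 0.542, adjusted P = 0.0458) at 5 mM and -1.83 (standard error 0.215) at 50 mM. At 5 mM it was -1.47 and not called without replicate 3. At 50 mM no gene was called without replicate 1, and its value was then -1.88.

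For each 100 reads of NR1H2 there were 14.8 to 42.7 reads of NR1H3 in stromal libraries (median 34.5, n = 15) and 2.88 to 11.0 in epithelial libraries (median 6.99, n = 15). The ranges of this read ratio did not overlap. It is a ratio of reads and not of molecules, because the lengths of the transcripts were not used.

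MYLIP, also called IDOL, is an LXR target that tags the LDL receptor for degradation. Unlike the transporters it was higher in stromal cells, at 37.9 to 115 CPM (median 50.3) in the stromal and 7.87 to 16.1 CPM (median 12.0) in the epithelial insulin libraries. MYLIP was at -2.35 on the log2 scale (standard error 0.19, adjusted P = 0.00145) with vehicle, -2.52 at 1 ng/mL and -2.46 at 10 ng/mL, all called, as was -2.002 (standard error 0.389, adjusted P = 0.0178) at 5 mM. At 50 mM the cell types overlapped, with 9.66, 6.37 and 23.2 CPM in epithelial and 35.8, 22.2 and 23.0 CPM in stromal cells. There MYLIP was at -1.38 (95% interval -2.53 to -0.24, adjusted P = 0.0928), and it was called at -2.03 without replicate 3 and at -1.40 with DESeq2. Stromal replicate 2 of the insulin experiment was above the other replicates at every dose, with 96.2, 115 and 101.5 CPM of MYLIP.

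NPC1, the membrane protein that passes cholesterol out of the lysosome, was higher in epithelial cells. Epithelial insulin libraries held 109.2 to 147.8 CPM (median 134) and stromal ones 58.0 to 77.8 CPM (median 67.2), without overlap. It was called with vehicle (0.80, standard error 0.191, adjusted P = 0.0218), at 1 ng/mL (0.93, adjusted P = 0.00502) and at 10 ng/mL (0.88, adjusted P = 0.0152). The call with vehicle was lost without replicate 1 (0.55) and without replicate 3 (0.87), and that at 10 ng/mL without replicate 3 (0.92). In the glucose experiment edgeR did not call it, at 0.94 (95% interval 0.19 to 1.69, adjusted P = 0.0865) at 5 mM and 0.71 (0.25 to 1.17, adjusted P = 0.0531) at 50 mM. Every epithelial library was above the stromal libraries of its concentration, but how many of all genes did so was not counted. DESeq2 called NPC1 at both (adjusted P = 0.0368 and 0.0239). With edgeR it was also called without replicate 2 at 5 mM, and at 50 mM without replicate 3 (0.89) or without the filter (0.72).

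NPC2, the soluble partner that hands cholesterol to NPC1, was called in none of the 5 conditions. It was expressed at 176.6 to 240 CPM in epithelial insulin libraries, within the 153.8 to 247.1 CPM of the stromal ones. Its log2 fold change had 95% intervals of -0.37 to 0.19 with vehicle, -0.37 to 0.32 at 1 ng/mL, -0.37 to 0.23 at 10 ng/mL, -0.38 to 1.15 at 5 mM and -0.20 to 0.63 at 50 mM. At 5 mM its groups did not overlap, with means of 266 CPM in epithelial and 176 CPM in stromal cells, and epithelial cells were above in 3 of 3 pairs. How many of all genes did so was not counted, so this is not read as a result about NPC2.

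APOE encodes apolipoprotein E, which accepts cholesterol and carries it to LDL-family receptors. It was higher in stromal cells in 3 of 3 pairs at each insulin dose, with 57.4 to 79.4 CPM (median 67.3) in stromal and 11.8 to 18.3 CPM (median 15.5) in epithelial libraries. APOE differed by -2.23 on the log2 scale (standard error 0.123, adjusted P = 0.000914) with vehicle, -2.30 (standard error 0.178) at 1 ng/mL and -2.28 (standard error 0.123) at 10 ng/mL. At 50 mM of glucose it was also called (-1.98, standard error 0.333, adjusted P = 0.0197), though not without replicate 1 (-1.58), with 12.7, 16.1 and 21.6 CPM in epithelial and 73.0, 34.25 and 79.6 CPM in stromal cells.

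At 5 mM, replicate 2 decided the value of APOE. The epithelial libraries held 10.8, 127.5 and 21.4 CPM and the stromal libraries 82.6, 31.8 and 180.2 CPM. Replicate 2 was the high epithelial and the low stromal library, and the order of the cell types was turned round in that pair alone. The estimate was -1.92 (95% interval -5.06 to 1.23, adjusted P = 0.369) and -3.26, called, without both libraries of replicate 2. The epithelial library of replicate 2 had a stromal marker median of 3.50%, the lowest of the 6 epithelial glucose libraries. It also had the highest NR1H2 level of the 30 libraries, 105.8 CPM, and the highest summed epithelial markers.

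SCARB1 encodes SR-BI, a receptor that exchanges cholesterol with HDL in both directions. Stromal cells were above epithelial cells in 3 of 3 pairs of every condition. The epithelial insulin libraries held 18.6 to 29.3 CPM and the stromal ones 28.7 to 42.1 CPM. SCARB1 was at -0.76 on the log2 scale (standard error 0.179, adjusted P = 0.021) with vehicle and -0.74 (standard error 0.164, adjusted P = 0.0391) at 50 mM, both called. It was -0.52 (adjusted P = 0.0644) at 1 ng/mL, -0.57 (adjusted P = 0.0922) at 10 ng/mL and -1.10 (adjusted P = 0.075) at 5 mM, none called. Without the replicate block these last 3 were called and the value at 50 mM was not, and the call with vehicle was lost without replicate 1 or replicate 3. The call at 50 mM was also lost without replicate 1 (-0.61) and without replicate 2 (-0.81), and DESeq2 called SCARB1 at 5 mM.

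With vehicle, the epithelial means of the genes called higher in stromal cells were 3.87 CPM for NR1H3, 12.4 for MYLIP, 15.2 for APOE and 22.6 for SCARB1, against 17.8, 62.2, 67.0 and 36.3 CPM in stromal cells. The median stromal marker in those 3 epithelial libraries was at 5.00%, 1.68% and 10.3% of its stromal level, and the part of stromal RNA in the epithelial values was not tested.

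At the adjusted P used here, no gene of the 9 was called for glucose or insulin within a cell type. Over 8 comparisons 69 tests were made, with ABCG1 not tested in the 3 stromal insulin comparisons because of its low counts. Of these tests 0 were called by edgeR and 0 by DESeq2, and 5 had an unadjusted P under 0.05. These 5 include ABCG1 in stromal cells for glucose, which passed the filter on low counts through its 50 mM libraries. The share of all protein-coding genes called was 0.113% (0.0727% higher, 0.0404% lower) for epithelial cells at 10 ng/mL against vehicle, 0.0244% for stromal cells at 10 against 1 ng/mL and 0% in the other 6 comparisons.

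**Figure D4:**
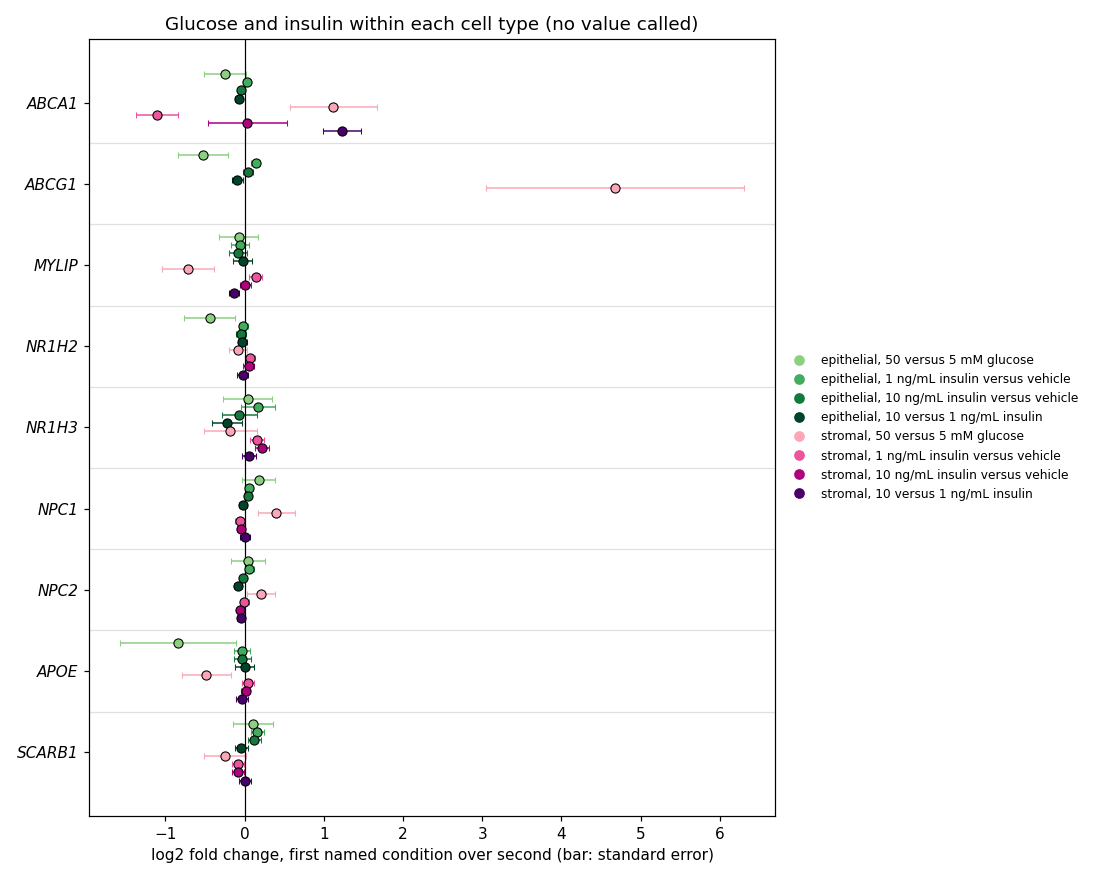
Log2 fold change of each gene for glucose and insulin within epithelial cells (greens) and stromal cells (pinks and purples). Points are estimates and bars are standard errors (n = 3 per group). No value was called, the epithelial insulin values lie between -0.22 and 0.17, and the values beyond 1 in size are ABCA1 and ABCG1 in stromal cells.

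In epithelial cells, the values for insulin lay close to 0. The 9 genes ranged between -0.06 and 0.17 for 1 ng/mL against vehicle, between -0.08 and 0.12 for 10 ng/mL against vehicle and between -0.22 and 0 for 10 against 1 ng/mL. ABCA1 had the narrowest 95% intervals, -0.07 to 0.12, -0.13 to 0.04 and -0.17 to 0.02. ABCG1 was at 50.3, 70.7 and 53.4 CPM with vehicle and at 54.9, 79.6 and 58.5 CPM at 1 ng/mL, higher in 3 of 3 pairs (0.14, standard error 0.0583, unadjusted P = 0.0268, adjusted P = 0.9996).

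Epithelial cells at 50 mM against 5 mM of glucose gave values between -0.84 and 0.18. ABCG1 was lower at 50 mM in 3 of 3 pairs, with 56.9, 25.3 and 66.4 CPM at 5 mM and 48.8, 10.51 and 60.5 CPM at 50 mM, but was not called (-0.52, 95% interval -1.31 to 0.27, adjusted P = 0.804). APOE was at -0.84 and NR1H2 at -0.44. Without both libraries of replicate 2, whose 5 mM library was the highest of the 6 for both genes, they were 0.14 and -0.04.

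In stromal cells, the values for insulin lay between -0.13 and 0.22 for 7 of the 8 genes tested, and those of ABCA1 were larger in both comparisons with the 1 ng/mL group. The stromal libraries held 17.1, 17.8 and 6.28 CPM of ABCA1 with vehicle, 10.0, 3.48 and 5.16 CPM at 1 ng/mL and 39.1, 4.03 and 9.13 CPM at 10 ng/mL, in the order of the replicate numbers. The level was lower at 1 ng/mL than with vehicle in 3 of 3 pairs and higher at 10 than at 1 ng/mL in 3 of 3 pairs, though all 3 groups overlapped.

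The log2 fold change of ABCA1 in stromal cells was -1.11 for 1 ng/mL against vehicle (standard error 0.268, unadjusted P = 0.00125, adjusted P = 0.567). It was 1.23 for 10 against 1 ng/mL (standard error 0.241, unadjusted P = 0.000369, adjusted P = 0.248) and 0.04 for 10 ng/mL against vehicle (95% interval -1.10 to 1.17, adjusted P = 0.999). These comparisons share groups, so they are not independent of each other. The study lists ABCA1 among the transcripts altered in stromal cells between 1 and 10 ng/mL of insulin. Its methods state the cut-off as P below 0.05, without naming an adjustment. Here, single replicates decided the calls. The value for 1 ng/mL was -0.55 without replicate 2 and -1.40, called, without replicate 3. The value for 10 against 1 ng/mL was 0.60 without replicate 1 and was called at 1.47 without replicate 2 and at 1.41 without replicate 3. For 10 ng/mL against vehicle it was -0.84 without replicate 1 and was called at 0.99 without replicate 2. Without the filter on low counts, the first and the second were called.

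The epithelial markers moved in part with these values. The stromal libraries with most ABCA1 included vehicle replicate 2 and 10 ng/mL replicate 1, whose epithelial marker medians were 3.63% and 3.54%, against at most 0.353% in the other 7 insulin libraries. Vehicle replicate 1 had 17.1 CPM of ABCA1 with a marker median of 0.0723%, and its 1 ng/mL partner had 10.0 CPM with 0.0476%. In replicate 3, ABCA1 was 6.28, 5.16 and 9.13 CPM with marker medians of 0.0539%, 0.0803% and 0.353%. The part of epithelial RNA in the ABCA1 values was not tested.

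NR1H3 had stromal groups that did not overlap between a dose of insulin and vehicle. How many of all genes did so was not counted, so this is not read as a result about NR1H3. It was at 16.6, 18.6 and 18.1 CPM with vehicle, 19.0, 19.8 and 19.7 CPM at 1 ng/mL and 20.7, 22.3 and 18.8 CPM at 10 ng/mL. Both doses were above vehicle in 3 of 3 pairs, by 0.16 on the log2 scale (standard error 0.0913, adjusted P = 0.921) and 0.22 (standard error 0.0892, unadjusted P = 0.0384, adjusted P = 0.999). Neither was called, and 0% of all genes were in either comparison.

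Stromal cells at 50 mM against 5 mM of glucose gave wide values, none called. ABCG1 was at 4.68 (95% interval 0.26 to 9.09, unadjusted P = 0.0421, adjusted P = 0.696) and ABCA1 at 1.12 (-0.37 to 2.61, adjusted P = 0.696). ABCG1 passed the filter on low counts through its 50 mM libraries, so its P does not test the change. With no read in 2 of the 3 libraries at 5 mM, the size of its value is not a measured fold. MYLIP was at -0.71 (-1.60 to 0.17), APOE at -0.48 (-1.32 to 0.35), NPC1 at 0.40 (-0.24 to 1.05) and NPC2 at 0.20 (-0.28 to 0.69). Without replicate 3, whose 50 mM library had the high epithelial markers, these 6 values were 2.37, 0.41, -0.33, -0.07, 0.096 and -0.0022. Without replicate 1, both 5 mM libraries left had no ABCG1 read. The epithelial marker medians were 6.01%, 0.0185% and 0.0692% at 5 mM and 13.8%, 5.09% and 62.1% at 50 mM, so they were higher at 50 mM in each pair, as ABCG1 was. The marker content and the glucose concentration cannot be told apart in these 6 libraries.

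The difference between the cell types in the effect of each treatment was tested as an interaction. Of 36 such tests 2 were called. ABCG1 was called for 1 ng/mL against vehicle (6.12, standard error 0.913, adjusted P = 0.00405, with 0.659% of all genes called, each in that direction) and ABCA1 for 10 against 1 ng/mL (-1.41, standard error 0.221, adjusted P = 0.00501, with 0.728% of all genes called, 0.0225% higher and 0.706% lower), where a positive value means a higher change in epithelial cells. ABCG1 entered the test for 1 ng/mL against vehicle through its epithelial libraries alone, so its call does not test a difference between the cell types. Its value rested on the 22 reads of the stromal vehicle library of replicate 2. Without all replicate 2 libraries of both cell types it was 0.12, and every stromal library left had no ABCG1 read. Since all 3 stromal libraries at 1 ng/mL were at 0, the size of the value is not a measured fold. The value for ABCA1 was not called without replicate 1 (-0.72) or with DESeq2 (-1.12), and neither was called without the replicate block or with all insulin groups in 1 model. In stromal replicate 1 the epithelial marker median was 3.54% at 10 ng/mL and 0.0476% at 1 ng/mL. What epithelial RNA contributed to the ABCA1 call was not tested. No gene was called for the interaction with glucose or with 10 ng/mL against vehicle (0% of all genes in both), where the lowest unadjusted P of the 9 genes was 0.00771 and 0.079. The first belonged to ABCG1, which had no read in 2 of the 3 stromal libraries at 5 mM.

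Other genes of sterol handling were counted by 6 lists. Over the 8 treatment comparisons, 0 of 420 tests on list genes were called by edgeR and 0 by DESeq2, with 19 at an unadjusted P under 0.05. Without replicate 3, edgeR called CLU and SCD in stromal cells for 1 ng/mL against vehicle and CLU for 10 against 1 ng/mL. Over the 4 interactions it was 0 of 226 by both, with 17, while CLU was called in both comparisons with the 1 ng/mL group without the filter. Between the cell types, 134 of 273 tests were called over the 5 comparisons, in which the share of all genes called was 17.6% to 59.4%. With vehicle that share was 28.2% higher and 27.8% lower, and the counts of each list below stand against it. They include genes that passed the filter on low counts through 1 cell type, so their calls were fixed. Among such genes were CD36, with a median of 0 CPM in epithelial libraries, and APOL3, with a median of 0 CPM in stromal ones. Low medians in epithelial libraries were also those of CYP11A1 (0.375 against 4.81 CPM in stromal ones) and APOA1 (0.411 against 2.71 CPM). SNTB1 was low in stromal libraries (0.122 against 2.74 CPM in epithelial ones). How many called genes passed in this way was not counted. APOL3 has more than 1 entry, and the totals of tests given here count each, while the lists below use 1.

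The first list, LXR partners and cofactors, had 10 of 11 genes in the tables. With vehicle 3 were higher in epithelial and 2 in stromal cells, with a median log2 fold change of 0.30 against 0.00 for all genes. PPARG, a fatty acid-activated receptor known to act upstream of LXR alpha in macrophages, was higher in epithelial cells in all 5 conditions (15.8 to 35.9 against 0.175 to 6.97 CPM, mean log2 fold change 3.003). RXRA, the retinoid X receptor alpha that pairs with LXR, was higher in stromal cells in all 5 (4.75 to 28.2 CPM in epithelial libraries, against 29.2 to 56.4 in stromal ones, mean -1.89).

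Of 15 other LXR target genes, 9 were in the tables. With vehicle 5 were higher in epithelial and 1 in stromal cells among 7 tested, with a median of 1.66. ABCA7, a lipid transporter related to ABCA1, was called higher in epithelial cells in all 5 conditions (mean 2.08). The list of acceptors and other efflux partners had 9 of 11 genes. Among 6 tested with vehicle, 3 were higher in epithelial and 2 in stromal cells, with a median of 0.97. CLU, which encodes the extracellular chaperone and apolipoprotein clusterin, was higher in epithelial cells in all 5 (354 to 798.5 against 10.7 to 327 CPM, mean 4.01). ABCA3, which moves phospholipid into lamellar bodies, was also higher in epithelial cells (mean 2.29), and ABCA2, a transporter of the endolysosomal membrane, was higher in stromal cells (mean -2.85).

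The list of lysosomal and intracellular sterol handling had 12 of 13 genes, with 4 higher in epithelial and 3 in stromal cells with vehicle (median 0.11). GRAMD1C (mean 2.94) and GRAMD1B (mean 1.96), which move cholesterol from the plasma membrane to the endoplasmic reticulum, were higher in epithelial cells in all 5 conditions. Sterol uptake and the SREBF2 arm had 11 of 12 genes, 4 higher in epithelial and 3 in stromal cells with vehicle (median -0.13). LRP1, a receptor for APOE-bearing particles, was higher in stromal cells in all 5 (590.5 to 1751 against 1897 to 4811 CPM, mean -1.90). Of the 8 of 10 esterification and oxysterol genes found, 2 of 6 tested were higher in stromal cells with vehicle (median -0.32). They included CYP11A1, whose median in epithelial libraries was 0.375 CPM. None of this list was called in all 5 conditions.

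**Figure D5:**
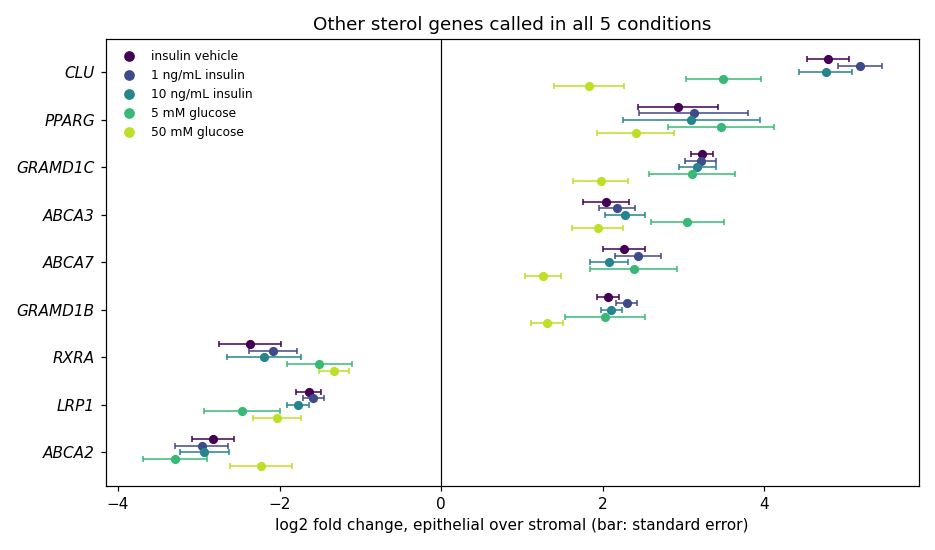
The 9 sterol genes outside the main set that were called in the same direction in all 5 conditions, with the log2 fold change, epithelial over stromal, on the horizontal axis. Points are conditions and bars are standard errors (n = 3 per group). CLU, PPARG, GRAMD1C, ABCA3, ABCA7 and GRAMD1B lie right of 0 and RXRA, LRP1 and ABCA2 left of 0.

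Genes with the most similar pattern were sought by Pearson's r of log2(CPM + 1) over the 30 libraries, after the mean of each experiment and cell type had been subtracted. The 3 most like ABCA1 were PLK2, EGLN3 and FAM160A1 (r = 0.87 each). The most like was SLC35C1 for ABCG1 (0.94), PTOV1 for NR1H2 (0.93), METRN for NR1H3 (0.79), DDOST for MYLIP (0.82), SLC5A8 for NPC1 (0.87), HERC3 for NPC2 (0.88), PRKAR1B for APOE (0.91) and PDGFD for SCARB1 (0.78). Among the members themselves, ABCA1 and ABCG1 had r = 0.73 and NR1H2 and APOE r = 0.80. The libraries share replicate numbers, depth and the content of the other cell type, so these values are descriptions.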

How the data were processed

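RNA of epithelial and stromal cells was sequenced in 30 libraries (single-end reads, stranded kit). By the study's methods, the authors trimmed and filtered the reads (Cutadapt, fastq_quality_filter), mapped them with Rsubread, using an Ensembl cow genome, and counted unique alignments per gene with featureCounts. The strand setting of the counting is not given in the sources used here. The deposited values were raw counts for 27607 genes. Gene symbols and types came from the authors' comparison tables, whose mean counts, fold changes and p-values were not used.

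Here, R 4.3.3 and edgeR 4.0.16 were used. Each comparison was fitted on its own groups with filterByExpr, TMM factors and the replicate number as a block, since the study's methods state a paired design. The cell-type comparisons were blocked by number across the cell types. For the interactions each replicate of each cell type was its own block, as the labels do not tie a number to an animal in both. The quasi-likelihood test was two-sided, with Benjamini-Hochberg adjustment over all genes tested, and calls needed an adjusted p-value under 0.05 and a log2 fold change beyond 0.1. Shares of genes called refer to protein-coding genes. Same-numbered libraries deviated together: over the 8 treatment comparisons the correlation of deviations was 0.187 to 0.865 in 24 pairs, above 0.1 in each, and over the 5 cell-type comparisons it was 0.0327 to 0.526 in 15 pairs, above 0.1 throughout in 3 of the 5. The scripts were tested on simulated counts. No libraries were identical (0 pairs). Intervals are 95%.

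The 9 genes, the 6 lists and the markers were chosen with earlier results of these data known. List genes were named when called in a treatment or interaction, or, for the cell types, as the 3 largest by mean among those called in the same direction in all 5 conditions; CPM of at least 1 on average was required of similar genes. Alternatives were DESeq2 1.42.0, no block, other size factors, no filter, 1 replicate left out, and all insulin groups in 1 fit.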

Additional observations from a re-analysis of the deposited data

Results flagged for a closer look

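Of the 36 differences between the cell types in a treatment effect, 5 were listed, because the difference was called or because all 3 pairs of each cell type moved in opposite directions. The share of all genes with such opposite pairs was not counted, so that rule alone gives no result about a gene. ABCA1 for 10 against 1 ng/mL of insulin was called (-1.41, adjusted P = 0.00501), with -0.07 in epithelial cells (lower in 3 of 3 pairs) and 1.23 in stromal cells (higher in 3 of 3). The call was lost without replicate 1 (-0.72), with DESeq2, without the replicate block and with all insulin groups in 1 model. In stromal replicate 1 the epithelial marker median was 3.54% at 10 ng/mL and 0.0476% at 1 ng/mL. What epithelial RNA contributed to this call was not tested. ABCG1 for 1 ng/mL against vehicle was called (6.12, adjusted P = 0.00405), through 22 reads in 1 stromal library. It entered the test through its epithelial libraries alone, so this call does not test a difference.

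The other 3 failed the correction. ABCG1 for 50 against 5 mM of glucose was at -5.17 (adjusted P = 0.631), with -0.52 in epithelial and 4.68 in stromal cells. Of its 3 stromal libraries at 5 mM 2 had no read, so neither the stromal value nor the difference is a measured fold. SCARB1 for 1 ng/mL against vehicle was at 0.25 (adjusted P = 0.603), with 0.16 in epithelial and -0.08 in stromal cells. NPC1 for 10 ng/mL against vehicle was at 0.082 (adjusted P = 1), with 0.04 and -0.05.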

How the results depend on the processing

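Under the alternatives, 105 counts of called members stayed within 1.5 times the reported count and 23 did not. Without the replicate block, the count fell from 4 to 2 between the cell types at 50 mM, and from 1 to 0 for the interactions with 1 ng/mL against vehicle and with 10 against 1 ng/mL. With DESeq2 it was 6 at 5 mM and 7 at 50 mM between the cell types, and 0 for the interaction with 10 against 1 ng/mL. Without the filter it was 1 in stromal cells for 1 ng/mL against vehicle and for 10 against 1 ng/mL, and 2 for each of the 2 matching interactions. With all insulin groups in 1 model both interactions were at 0. With 1 replicate left out, the counts were 0 to 1 in each of the 3 stromal insulin comparisons, 3 to 5 at 5 mM and 0 to 6 at 50 mM between the cell types, and 0 to 1 (glucose), 0 to 2 (1 ng/mL), 0 to 2 (10 ng/mL) and 0 to 1 (10 against 1 ng/mL) for the interactions. The causes were not tested.

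Of the alternatives to the 74 log2 fold changes followed one by one, 474 kept direction and call, 28 gained a call, 20 lost one and 14 changed sign. Over every fit of the 9 genes, the sign changed in 6 values between the cell types, 44 for the treatments and 24 for the interactions. For ABCA1, 10 ng/mL against vehicle in stromal cells was -0.055 with DESeq2 and -0.84 to 0.99 with 1 replicate left out, and its interaction was 0.0026 and -1.02 to 0.82. With 1 replicate left out, APOE in epithelial glucose was -1.53 to 0.14 and NPC2 in stromal glucose -0.0022 to 0.38. Between the cell types, NPC2 was -0.12 to 0.14 at 1 ng/mL and -0.12 to 0.012 at 10 ng/mL. NR1H2 was -0.077 to 0.079 at 10 ng/mL (-0.021 without the filter), -0.18 to 0.63 at 5 mM and -0.23 to 0.055 at 50 mM. RLE size factors changed no count of called members.

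Counts over all genes moved more. Between the cell types at 50 mM, 2328 genes were called, and 1052 without the block, 0 without replicate 1 and 3785 without replicate 3. The interactions with 1 ng/mL against vehicle (88) and 10 against 1 ng/mL (97) fell to 0 without the block and in 1 model, were 26 and 48 with DESeq2 and 270 and 284 without the filter, and ranged over 2 to 153 and 36 to 125 with 1 replicate left out. Epithelial cells at 10 ng/mL against vehicle (14) gave 0 without the block, with DESeq2 or in 1 model, 41 without the filter and 7 to 68 with 1 replicate left out. Stromal cells at 10 against 1 ng/mL (3) gave 0 to 138. For glucose, DESeq2 called 176 genes in stromal cells and 237 for the interaction, against 0. ABCG1 had no read in most stromal libraries, where its level is known only to be under the limit of 3 counts.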
